A study of Mus musculus with 69 samples.

Results

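Planar polarity and noncanonical Wnt genes were followed as a set of 10 mouse genes among the 15924 genes measured: the ligand Wnt5a, the coreceptors Ror1 and Ror2, the receptors Fzd2 and Fzd7, the cytoplasmic proteins Prickle1 and Prickle2, and the membrane proteins Vangl1, Vangl2 and Celsr1. The genes were chosen by name, and they were picked from results of these data, because Prickle1 was lower in GSK343-treated day 4 embryoid bodies and Ror1 was lower in EZH2-mutant day 8 embryoid bodies. Those 2 comparisons are therefore described without a test, and tests are given for the other stages and cultures. In these tests the spread of a gene was estimated over all groups fitted together. It therefore includes the libraries that chose Prickle1 and Ror1.

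All libraries came from CJ7 cells, a mouse embryonic stem (ES) cell line, grown on a layer of fibroblast feeder cells and differentiated as embryoid bodies, cell aggregates formed in hanging drops. GSK343, an inhibitor of the histone methyltransferase EZH2, was given at 4 µM, and DMSO cultures received the same volume of solvent. In ES cell, day 4 and day 8 cultures the drug started 3 days ahead of differentiation and stayed in the medium until collection. ES cells, day 4 and day 8 embryoid bodies had 2 libraries each under GSK343 and 2 each under DMSO. EZH2-mutant CJ7 cells and wild-type (WT) CJ7 cells had 3 libraries each at the same stages; the labels do not name the allele or say how many clones were used. In the replating arm, embryoid bodies were returned to ES medium for 5 days, and these cultures are given as day 14. The first treatment named came before replating and the second after it. The groups were GSK343 then GSK343 (2 libraries analysed here), GSK343 then DMSO (3), DMSO then GSK343 (3) and DMSO then DMSO (3). The labels do not say that libraries of a group came from separate cultures, so the p-values measure the spread between these libraries. Levels are RPKM, read counts scaled by transcript length and library depth, and differences are on the log2(RPKM + 1) scale, which understates changes of low genes.

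In planar cell polarity, Frizzled receptors gather on the side of a cell opposite to Vangl and Prickle proteins, and Celsr cadherins link neighbouring cells. Together they orient cells within the plane of a tissue. In noncanonical Wnt signalling, Wnt5a acts through Ror and Frizzled receptors on Dishevelled, small GTPases and the cytoskeleton, without stabilising beta-catenin. The vertebrate embryo uses both in convergent extension, the movement by which gastrulating mesoderm and the neural plate lengthen.

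Several libraries stood apart from their groups. Sequencing depth was recovered from the RPKM steps as reads summed over the genes listed with a length. It was 5005000 to 22000000 reads (to the nearest 1000) in the GSK343 and DMSO table. The mutant and WT table had 7170000 to 28473000 reads, and the replated libraries 2265000 to 8342000. The ribosomal RNA precursor Rn45s took 4.08% to 57.9% of reads in the mutant and WT table, most in WT day 4 library 2. The mutation was visible at Ezh2 itself, which averaged 22.1 ± 3.83 RPKM in mutant and 43.3 ± 2.22 RPKM in WT day 8 embryoid bodies (SD, n = 3 each). A list of 20 feeder fibroblast and mesenchyme markers summed to 1679 RPKM in WT ES cell library 3, against 113.7 and 75.99 RPKM in WT ES cell libraries 1 and 2. A list of 15 pluripotency markers summed to 761.5 RPKM in WT day 8 library 3, against 77.76 and 82.74 RPKM in libraries 1 and 2, and to 1555 RPKM in WT day 4 library 3, against 766.8 and 904.8 RPKM. In the DMSO then DMSO cultures it summed to 991.4 RPKM in library 1, against 109.8 and 169.7 RPKM in libraries 2 and 3. Results that touch these libraries are given with them and, where leaving one out moves a call, without it.

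Polycomb peaks were found at some members and not at others. H3K27me3 is the repressive histone mark that EZH2 deposits, and the authors' H3K27me3 peak list, merged over WT stages by its name, placed a peak within 1 kb of 6 of the 10 members: Wnt5a, Ror1, Ror2, Fzd2, Prickle1 and Prickle2. The share among all genes was 32.6%. Gene length bears on such a count, since the median genomic span was 74159 bases for the members and 21955 bases for all matched genes. Vangl1, Vangl2, Fzd7 and Celsr1 had no such peak. Wnt5a and Fzd2 also lay at merged peaks of Suz12, a PRC2 subunit (2 of 10 members, 2.88% of genes), and of Ring1B, the PRC1 ubiquitin ligase (2 of 10 members, 5.06% of genes). Fzd2 alone lay at a merged Ezh2 peak (1 of 10 members, 2.09% of genes). Suz12 peak lists of single libraries varied widely, from 1000 to 8810 peaks. In mutant cells they placed a peak at 5 and 2 of the 10 members in ES cells (14.1% and 11.7% of genes), 1 and 4 at day 4 (15.2% and 20.1%) and 1 and 4 at day 8 (8.93% and 20.5%). In WT cells, where the second library of each stage had its own list, they placed one at 1 member in ES cells (11.0% of genes), 0 at day 4 (3.08%) and 7 at day 8 (22.2%). The authors' deposited call of PRC2 targets was YES for 7 members, all but Vangl1, Vangl2 and Fzd7, and YES for 32.2% of the 14833 genes of the replating table.

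The widest H3K27me3 peak at a member lay inside Prickle1, on chromosome 15 (mm10) from 93506538 to 93536064, and covered 29527 bases. A further 8132 bases were covered over the upstream Prickle1 start. The peak over Wnt5a, on chromosome 14 from 28500038 to 28522679, covered 22642 bases. At Ror1 the mark left the start itself uncovered. An H3K27me3 peak ended 533 bases upstream of the Ror1 start and the next began 1841 bases downstream of it.

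Promoter sequences are shown for Prickle1 and Ror1, on whose expression the choice rested, and for Ror2 and Vangl2. These windows were picked with the expression known, and a relation of mark or CG content to response was not tested. Of the 10 members, 6 had a promoter window in RefSeq (GRCm38.p6, the mm10 assembly), each 300 bases long from 250 bases before to 50 bases after a transcription start. CG dinucleotides, the sites of vertebrate DNA methylation, are in capitals; windows are written 5′ to 3′ on the gene's strand. H3K27me3 peaks overlapped the Prickle1 and Ror2 windows shown here and did not overlap those of Ror1 and Vangl2.
Prickle1, chr15:93595853-93596152, minus strand: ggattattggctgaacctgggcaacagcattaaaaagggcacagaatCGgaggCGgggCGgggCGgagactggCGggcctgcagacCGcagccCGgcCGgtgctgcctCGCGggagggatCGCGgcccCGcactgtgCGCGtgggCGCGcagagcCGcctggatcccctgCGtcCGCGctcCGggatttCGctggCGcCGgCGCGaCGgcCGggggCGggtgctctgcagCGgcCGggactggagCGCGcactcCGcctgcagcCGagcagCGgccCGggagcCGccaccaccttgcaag
Ror2, chr13:53286075-53286374, minus strand: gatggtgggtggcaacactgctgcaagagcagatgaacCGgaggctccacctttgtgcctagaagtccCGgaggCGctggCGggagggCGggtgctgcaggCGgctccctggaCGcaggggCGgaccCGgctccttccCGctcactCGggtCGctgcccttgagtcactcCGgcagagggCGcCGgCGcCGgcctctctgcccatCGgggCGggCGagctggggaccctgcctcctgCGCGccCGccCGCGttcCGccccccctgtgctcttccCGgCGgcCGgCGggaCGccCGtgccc
Ror1, chr4:100095541-100095840, plus strand: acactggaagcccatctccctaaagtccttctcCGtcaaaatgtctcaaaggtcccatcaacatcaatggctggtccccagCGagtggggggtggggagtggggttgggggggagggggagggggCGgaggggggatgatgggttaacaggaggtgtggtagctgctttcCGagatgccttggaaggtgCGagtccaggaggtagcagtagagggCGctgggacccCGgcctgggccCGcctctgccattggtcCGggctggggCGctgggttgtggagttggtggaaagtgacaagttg
Vangl2, chr1:172027246-172027545, minus strand: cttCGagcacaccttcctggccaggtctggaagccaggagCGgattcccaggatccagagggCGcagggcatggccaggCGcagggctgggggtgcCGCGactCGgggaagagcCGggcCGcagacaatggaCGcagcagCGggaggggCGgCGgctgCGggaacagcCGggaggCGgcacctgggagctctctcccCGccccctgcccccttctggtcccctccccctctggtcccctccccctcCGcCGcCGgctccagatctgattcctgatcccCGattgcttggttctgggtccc

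Counting CG on these windows gave 39 for Prickle1, 32 for Ror2, 10 for Ror1 and 21 for Vangl2. A second Prickle1 window, at the downstream start, held 20 CG, a count reached by 26.5% of windows, and was also overlapped by an H3K27me3 peak. As many CG dinucleotides or more were found in 4.45% of all 32851 RefSeq promoter windows for the upstream Prickle1 window, 9.52% for Ror2, 43.5% for Ror1 and 24.8% for Vangl2. The median was 7 over all windows and 16 over the 17.4% of windows that an H3K27me3 peak overlapped. Prickle2 has 4 windows, of which the most upstream, with 25 CG, was overlapped by an H3K27me3 peak. Its level was not called in GSK343 against DMSO at day 8 (-0.12; limma, adjusted p = 0.512). Fzd7, with 24 CG, was overlapped in its window by a mutant day 8 and a WT day 8 Suz12 list and by no merged peak.

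**Figure D1:**
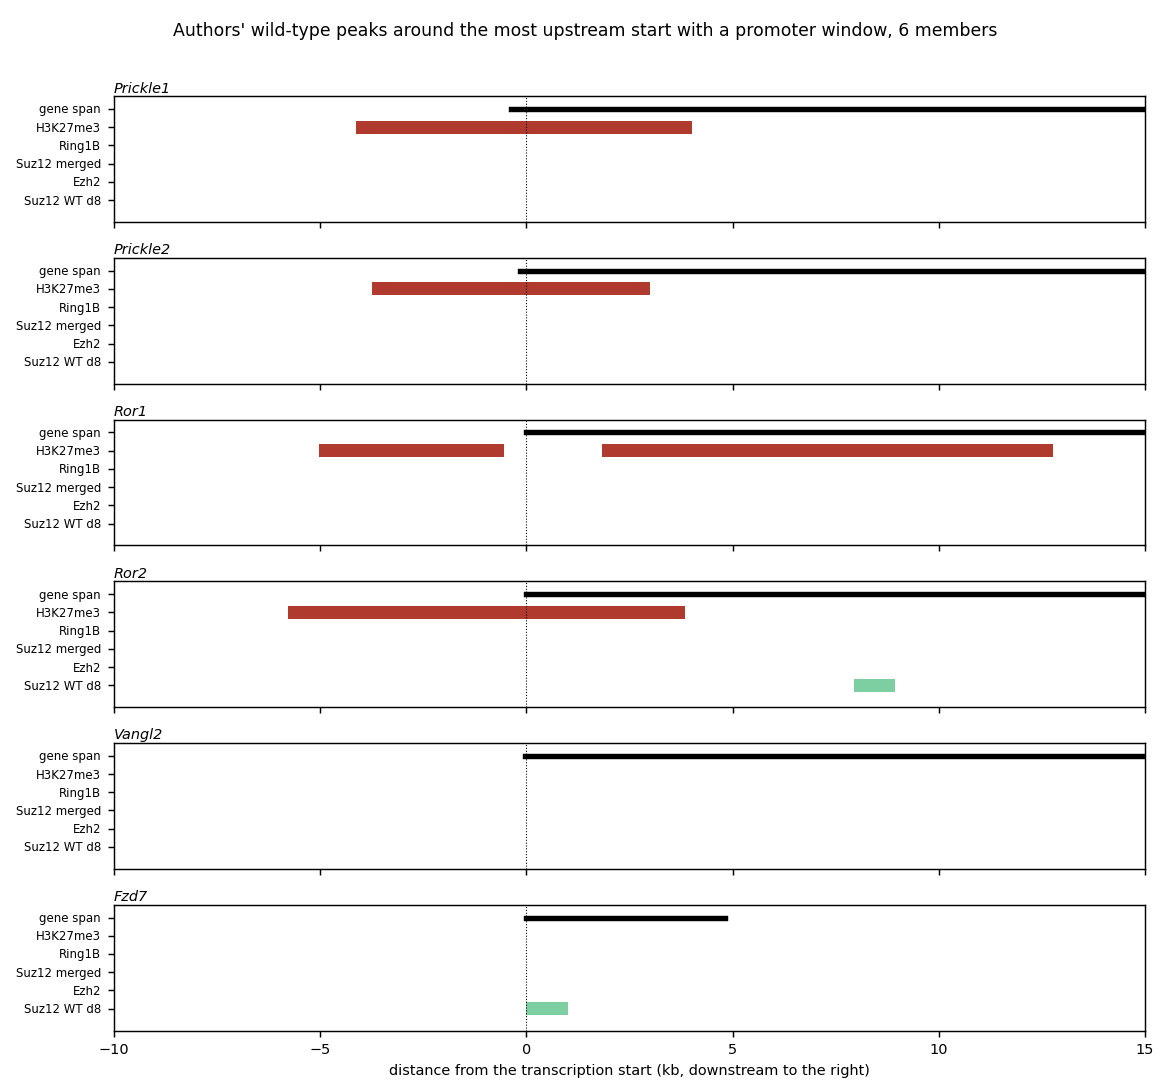
Positions of the authors' peaks around the most upstream start with a promoter window for 6 members; the x axis is the distance from that start in kb on the gene's strand, black bars are gene spans and coloured bars are peaks. H3K27me3 covered the starts of Prickle1, Prickle2 and Ror2, and flanked the start of Ror1 from 533 bases upstream and 1841 bases downstream. No H3K27me3 peak lay within 1 kb of the gene spans of Vangl2 and Fzd7. Peaks farther than 1 kb from a gene span are not drawn.

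The members differed widely in level. In DMSO ES cells, Fzd7 was the most abundant by RPKM, at 29.1 ± 2.23, followed by Vangl1 at 13.9 ± 2.88 and Ror2 at 10.4 ± 1.88 (SD, n = 2). The Vangl1 and Ror2 ranges came close, 11.8 to 15.9 RPKM and 9.11 to 11.8 RPKM. Vangl2 averaged 5.60 ± 0.44, Fzd2 4.89 ± 1.37 and Celsr1 3.69 ± 0.09 RPKM, where the Vangl2 and Fzd2 ranges overlapped and the Celsr1 range, 3.62 to 3.75 RPKM, ended just below that of Fzd2, 3.92 to 5.86 RPKM. Prickle1 averaged 1.44 ± 0.19, Wnt5a 0.844 ± 0.19, Prickle2 0.290 ± 0.05 and Ror1 0.088 ± 0.046 RPKM. Ror1 rested there on 15 and 8 reads, so its lowest levels carry a wide counting error.

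GSK343 left the members' levels in ES cells without a call. None of the 10 passed the limma test at an adjusted p of 0.05 in GSK343 ES cells against DMSO ES cells, as for all 14016 genes tested (0% called); 0 members and 669 genes had an unadjusted p under 0.05, and voom on the recovered reads also called 0. Vangl1 came nearest, at 16.8 and 23.4 RPKM in GSK343 ES cells, against 11.8 and 15.9 RPKM in DMSO ES cells. Member differences ran between -0.23 and 0.50, with a median of 0.06 against 0.04 for all genes. Feeder and mesenchyme markers summed to 435.6 and 249.3 RPKM in the GSK343 ES libraries and to 181.5 and 226.9 RPKM in the DMSO ES libraries.

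By day 8, 4 members were lower with GSK343: the ligand Wnt5a, its coreceptor Ror2, the receptor Fzd2 and the Vangl-binding protein Prickle1. None was higher. Among all 14016 genes, 16.0% were called lower and 15.6% higher, so calls were frequent at this stage. The median member difference was -0.37, against 0.00 for all genes.

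Wnt5a had 0.512 and 0.111 RPKM in GSK343 day 8 embryoid bodies, against 9.19 and 5.21 RPKM in DMSO day 8 embryoid bodies. The groups were far apart, and the difference was -2.62 ± 0.28 (SE; limma, adjusted p = 8.84e-05). Ror2, a receptor tyrosine kinase-like protein that binds Wnt5a, had 5.40 and 2.06 RPKM with GSK343, against 16.4 and 14.0 RPKM with DMSO. Its difference was -1.87 ± 0.31 (SE; limma, adjusted p = 0.00124). Both GSK343 libraries lay below both DMSO libraries for each of these genes.

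Prickle1 had 5.22 and 2.92 RPKM in GSK343 day 8 embryoid bodies, against 16.1 and 14.3 RPKM in DMSO day 8 embryoid bodies. The libraries did not overlap, and the difference was -1.71 ± 0.22 (SE; limma, adjusted p = 0.000258). Fzd2 had 20.5 and 18.2 RPKM with GSK343, against 37.4 and 51.0 RPKM with DMSO, a difference of -1.14 ± 0.30 (SE; limma, adjusted p = 0.0155). Fzd2 lost its call without DMSO day 8 library 2 (adjusted p = 0.120) and without GSK343 day 8 library 2 (adjusted p = 0.0669), with a range of 0.00549 to 0.120 over its 11 alternatives. Prickle1, Ror2 and Wnt5a kept adjusted p-values of at most 0.0256 in each of theirs.

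Ror1, the paralogue of Ror2, had 1.13 and 0.459 RPKM in GSK343 day 8 embryoid bodies, against 1.24 and 2.24 RPKM in DMSO day 8 embryoid bodies. The higher GSK343 library sat just below the lower DMSO library, and the difference of -0.61 ± 0.22 missed the threshold (limma, adjusted p = 0.0583). With the library number as a block, Ror1 passed it (limma, adjusted p = 0.0452). Without GSK343 day 8 library 1 its adjusted p was 0.0177 and without DMSO day 8 library 1 it was 0.0286, in a range of 0.0177 to 0.355 over 11 alternatives. The remaining 5 members had differences between -0.12 and 0.23: Vangl1 averaged 11.4 ± 3.29 with GSK343 and 12.2 ± 1.74 RPKM with DMSO, Fzd7 41.3 ± 7.55 and 39.8 ± 8.27, Celsr1 4.83 ± 0.96 and 4.52 ± 0.96, Prickle2 0.748 ± 0.22 and 0.898 ± 0.09, and Vangl2 6.31 ± 2.54 and 5.07 ± 0.77 (SD, n = 2 each). Vangl2 was called higher without GSK343 day 8 library 2 (0.59; limma, adjusted p = 0.0413; range 0.0413 to 0.845 over 11 alternatives).

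Cell-type markers moved with these differences. Of the 20 feeder and mesenchyme markers, 14 were lower and 0 higher at day 8, with summed levels of 59.02 and 125.7 RPKM in the GSK343 libraries, against 300.7 and 520.2 RPKM in the DMSO libraries. Of the 15 pluripotency markers, 13 were higher and 0 lower, with sums of 1604 and 2173 RPKM with GSK343, against 197.6 and 154.4 RPKM with DMSO. Of the cardiac markers 10 of 12 tested were lower, with sums of 24.7 and 42.32 RPKM with GSK343, against 202.2 and 172.5 RPKM with DMSO. Endoderm markers, 8 of 11 lower, summed to 26.44 and 4.269 RPKM with GSK343, against 188.3 and 136.4 RPKM with DMSO. Primitive streak and early mesoderm markers, 6 of 14 lower, summed to 49.23 and 10.38 RPKM with GSK343, against 249.3 and 138.9 RPKM with DMSO. Neural markers, 3 of 7 higher, summed to 89.85 and 72.32 RPKM with GSK343, against 19.8 and 19.89 RPKM with DMSO. No marker of these 6 lists in the table was at 0 in a whole day 8 group. Their part in the members' differences was not tested, and in bulk libraries fewer cells of a type and less RNA per cell cannot be told apart.

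**Figure D2:**
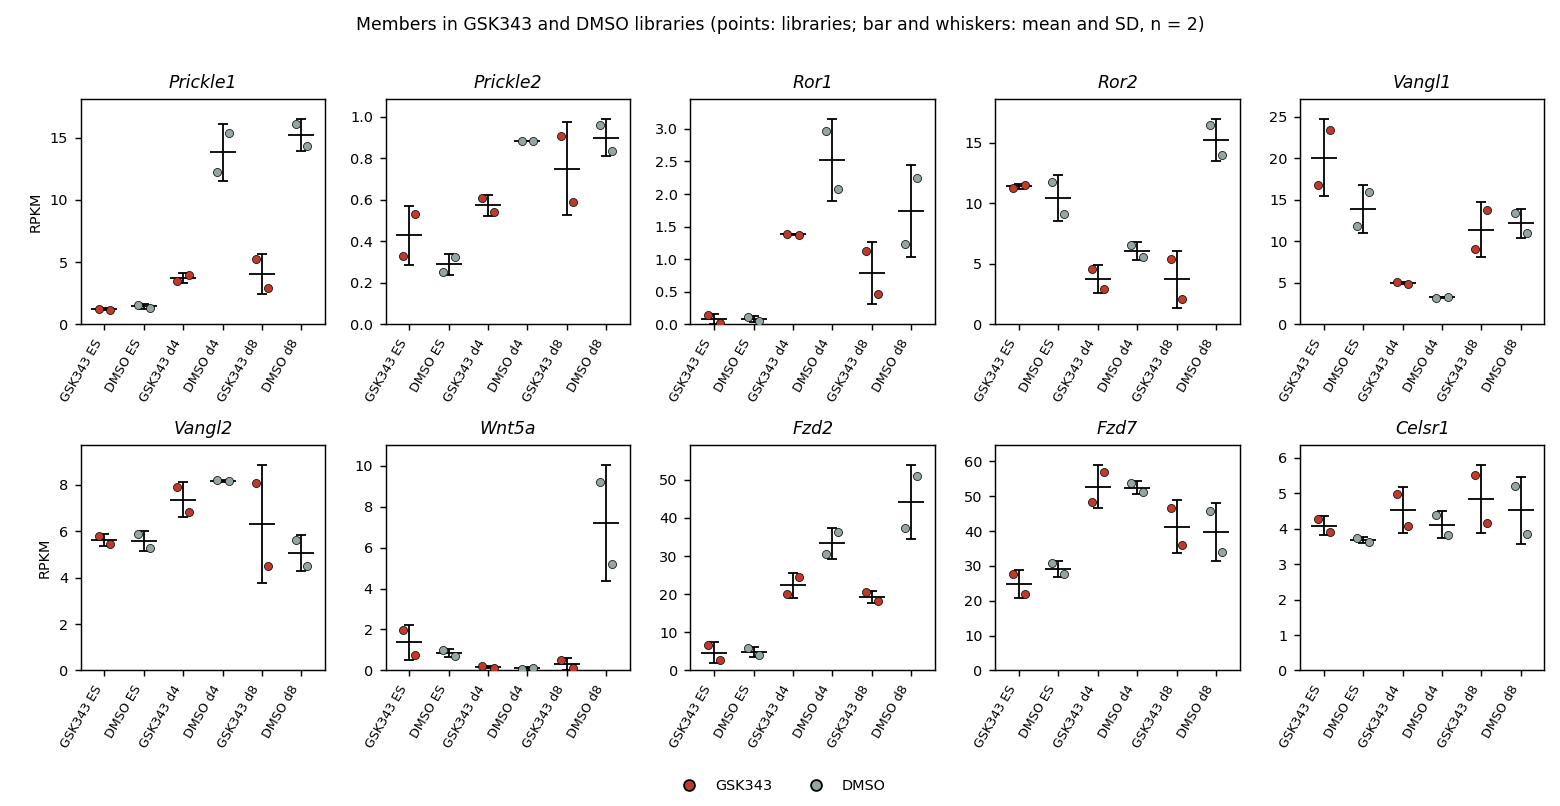
RPKM of the 10 members in GSK343 (red) and DMSO (grey) libraries of ES cells, day 4 and day 8 embryoid bodies; points are libraries, the bar is the mean and whiskers are the SD (n = 2), cut at 0. At day 8 Wnt5a reached 9.19 and 5.21 RPKM in the DMSO libraries alone, while Vangl1, Fzd7 and Celsr1 had overlapping groups.

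The GSK343 difference at day 8 exceeded that in ES cells for 3 members. Taken as day 8 minus ES cells, the change in the GSK343 effect was -2.93 ± 0.40 for Wnt5a (limma, adjusted p = 0.000863), -1.99 ± 0.43 for Ror2 (adjusted p = 0.0103) and -1.57 ± 0.31 for Prickle1 (adjusted p = 0.00616; SE, n = 2 libraries in each of the 4 groups). Over all genes 11.0% were called lower and 8.94% higher in this comparison. Fzd2 had a change of -1.02 ± 0.42 and missed the threshold (adjusted p = 0.119). It passed without GSK343 ES library 2 (adjusted p = 0.0163; range 0.0163 to 0.333 over 15 alternatives). The sum of the feeder and mesenchyme markers was above DMSO in GSK343 ES cells and below it at day 8. In the same comparison the pluripotency markers had a median change of 3.04. The part of either list in the members' changes was not tested.

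Time courses were then compared within each treatment. Under DMSO, 5 members were higher at day 8 than in ES cells and 0 lower, against 28.0% of all genes called higher and 20.9% called lower. Prickle1 had 16.1 and 14.3 RPKM in DMSO day 8 embryoid bodies, against 1.57 and 1.31 RPKM in DMSO ES cells, a difference of 2.73 ± 0.22 (SE; limma, adjusted p = 7.3e-06). Fzd2 gave 2.94 ± 0.30 (adjusted p = 3.4e-05), Wnt5a 2.11 ± 0.28 (adjusted p = 0.000195), Ror1 1.31 ± 0.22 (adjusted p = 0.000845) and Prickle2 0.56 ± 0.13 (adjusted p = 0.00548). Fzd7 missed the threshold (0.43 ± 0.19; adjusted p = 0.0821) and passed without DMSO day 8 library 2 (adjusted p = 0.0434; range 0.0315 to 0.455 over 11 alternatives). Prickle2 missed it after median centring (adjusted p = 0.0513, the highest of its 10 alternatives), which moved the median of all genes between -0.12 and 0.09, and in which 39.9% instead of 57.3% of calls were higher.

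Under GSK343 the same interval gave 3 members higher and 1 lower, against 7.11% of genes called higher and 4.52% lower. Fzd2 had 20.5 and 18.2 RPKM in GSK343 day 8 embryoid bodies, against 6.56 and 2.81 RPKM in GSK343 ES cells (1.92 ± 0.30; limma, adjusted p = 0.00341). Prickle1 rose by 1.16 ± 0.22 (adjusted p = 0.00851) and Fzd7 by 0.71 ± 0.19 (adjusted p = 0.0362). Ror2 fell by 1.48 on the log2 scale (SE 0.31; adjusted p = 0.0127), with 5.40 and 2.06 RPKM at day 8, against 11.3 and 11.5 RPKM in ES cells. None of these 4 passed when only the GSK343 day 8 and ES libraries were fitted, and without GSK343 ES library 2, the shallowest of its table, the 2 members called were Fzd2 and Wnt5a. Ror2 also lost its call without GSK343 ES library 1 (adjusted p = 0.0518; range 0.00185 to 0.129 over 11 alternatives), and Fzd7 without GSK343 day 8 library 1 (adjusted p = 0.196; range 0.0098 to 0.228). Without GSK343 day 8 library 2, Ror1 (0.98; adjusted p = 0.0204) and Vangl1 (-1.05; adjusted p = 0.0182) were called as well.

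The course of Wnt5a over the 3 stages was as follows. In GSK343 cultures it had 1.97 and 0.761 RPKM in ES cells, 0.219 and 0.126 RPKM at day 4 and 0.512 and 0.111 RPKM at day 8. In DMSO cultures it had 0.978 and 0.711 RPKM in ES cells, 0.0629 and 0.140 RPKM at day 4 and 9.19 and 5.21 RPKM at day 8. Every day 4 library was therefore below every ES cell library in both treatments, and the day 8 DMSO libraries stood above all others. The feeder and mesenchyme sum had the same order of stages under DMSO, with 51.6 and 54.06 RPKM at day 4. Its part in the Wnt5a levels was not tested.

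Wild-type and mutant cultures were compared first in ES cells. None of the 10 members was called in mutant against WT ES cells, where 0.0917% of 14180 genes were called; Prickle1 alone had an unadjusted p under 0.05, voom called 0 members, and 857 genes had an unadjusted p under 0.05. The groups did not overlap for 3 members, all lower in mutant cells, against 13.0% of all genes. Prickle1 had 0.969, 1.41 and 0.769 RPKM in mutant ES cells, against 3.66, 3.02 and 5.58 RPKM in WT ES cells, a difference of -1.29 ± 0.50 (SE; limma, adjusted p = 0.657). Fzd2 had 2.39, 2.98 and 1.35 RPKM in mutant and 5.62, 3.05 and 6.54 RPKM in WT ES cells. Fzd7 had 23.0, 21.3 and 15.5 RPKM in mutant and 25.7, 24.3 and 25.3 RPKM in WT ES cells.

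At day 4, none of the members was called in mutant against WT embryoid bodies either, and 0.0494% of genes were. An unadjusted p under 0.05 was found for 3 members and 661 genes, and voom called 0 members. Vangl1, which with Vangl2 recruits Prickle proteins to the membrane, had 11.0, 8.49 and 7.38 RPKM in mutant day 4 embryoid bodies, against 3.17, 3.53 and 3.98 RPKM in WT day 4 embryoid bodies. Every mutant library was above every WT library, and the difference was 1.11 ± 0.24 (SE; limma, adjusted p = 0.168; range 0.0678 to 0.839 over 13 alternatives). Ror1 had 1.58, 0.711 and 0.716 RPKM in mutant and 2.99, 2.73 and 1.82 RPKM in WT day 4 embryoid bodies, also without overlap (-0.82 ± 0.33; adjusted p = 0.884). These 2 members without overlap compare with 9.24% of all genes.

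Prickle1 had 8.64, 3.61 and 1.84 RPKM in mutant and 20.6, 18.8 and 8.21 RPKM in WT day 4 embryoid bodies. Within each library number the mutant library was the lower one. Across numbers, the highest mutant library was above the lowest WT library, library 3, whose pluripotency markers were also highest among the WT day 4 libraries (-1.66 ± 0.50; limma, adjusted p = 0.506). With the library number as a block, which pairs the libraries at this stage, 26 genes and 0 members were called, against 7 genes without it. The mutant effect at day 4 minus that in ES cells was called for 0 members and for 0% of genes; 1 member and 276 genes had an unadjusted p under 0.05, and voom called 0.

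**Figure D3:**
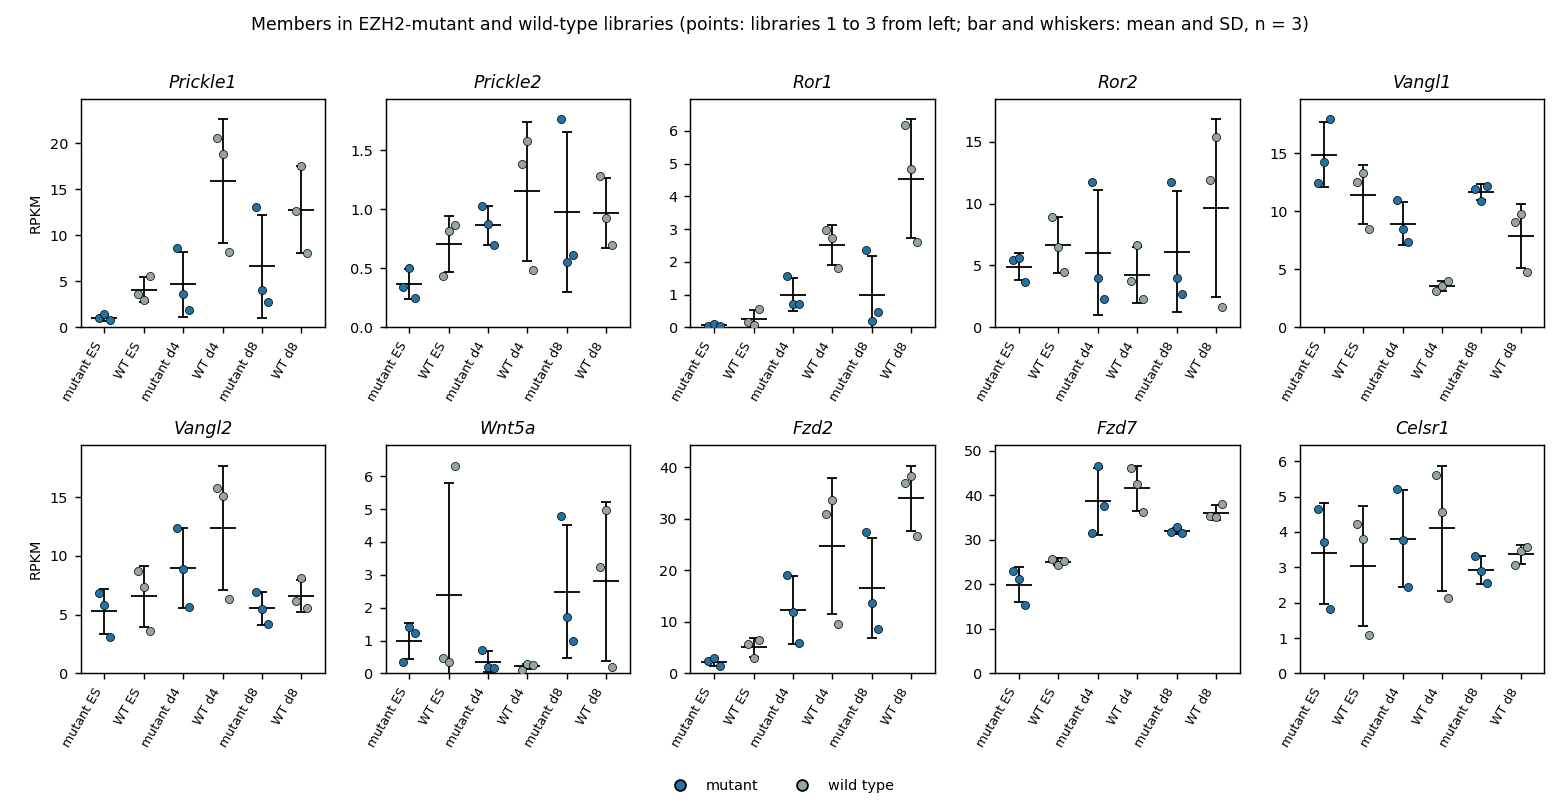
RPKM of the 10 members in EZH2-mutant (blue) and WT (grey) libraries of ES cells, day 4 and day 8 embryoid bodies; points are libraries 1 to 3 from left to right, the bar is the mean and whiskers are the SD (n = 3), cut at 0. Vangl1 at day 4 lay at 7.38 to 11.0 RPKM in mutant and 3.17 to 3.98 RPKM in WT libraries, and Wnt5a at 6.32 RPKM in WT ES library 3 stood apart from its group.

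From ES cells to day 4, WT cultures had 4 members higher and 1 lower, against 4.29% of genes called higher and 4.39% lower. Ror1 had 2.99, 2.73 and 1.82 RPKM in WT day 4 embryoid bodies, against 0.155, 0.0587 and 0.552 RPKM in WT ES cells (1.49 ± 0.33; limma, adjusted p = 0.0132). Fzd2 rose by 1.96 ± 0.48 (adjusted p = 0.0207), Fzd7 by 0.70 ± 0.16 (adjusted p = 0.0148) and Prickle1 by 1.67 ± 0.50 (adjusted p = 0.0489). By voom these 3 missed the threshold, Fzd7 by most (0.38; adjusted p = 0.7285). The authors' deposited log2 fold change for Fzd7 was 0.73, with an FDR of 0.411. Vangl1 fell by 1.43 (SE 0.24; adjusted p = 0.00217), with day 4 levels of 3.17 to 3.98 RPKM against 8.50 to 13.3 RPKM in WT ES cells. Without WT ES library 2, WT day 4 library 1 or WT day 4 library 2, Vangl1 was the only member still called, and 3 members were called without WT ES library 1. The adjusted p of Prickle1 ran between 0.0154 and 0.209 over its 13 alternatives, and 6 members, Vangl2 among them, were called without WT day 4 library 3. With the library number as a block, Vangl2 was also called higher (0.80; adjusted p = 0.0121; range 0.0121 to 0.650 over 13 alternatives) and 2276 genes were called in place of 1230.

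Mutant embryoid bodies had 2 members higher at day 4 than in mutant ES cells and 0 lower, against 3.10% of genes called higher and 3.27% lower. Fzd7, a Frizzled receptor abundant in ES cells, had 31.6, 46.7 and 37.7 RPKM at day 4, against 23.0, 21.3 and 15.5 RPKM in mutant ES cells (0.92 ± 0.16; limma, adjusted p = 0.00328). Fzd2 gave 1.94 ± 0.48 (adjusted p = 0.0256) and lost its call without any of 5 of the 6 libraries, mutant day 4 library 3 being the exception. Fzd7 missed the threshold by voom (adjusted p = 0.296; range 0.00192 to 0.296 over 13 alternatives). The authors' deposited log2 fold change for Fzd7 here was 0.95, with an FDR of 0.199. Ror1 had 1.58, 0.711 and 0.716 RPKM at day 4, against 0.0329, 0.102 and 0.0498 RPKM in mutant ES cells, without overlap. Its difference of 0.89 ± 0.33 missed the threshold (adjusted p = 0.138) and passed with a pseudocount of 0.1 (adjusted p = 0.0214), with these groups alone (0.0299) and by voom (0.0452), in a range of 0.0214 to 0.454 over 13 alternatives. The authors' deposited table lists a log2 fold change of 2.77 for Ror1 here with an FDR of 1.52e-10. Prickle1 was higher without overlap, averaging 4.69 ± 3.53 RPKM at day 4 and 1.05 ± 0.33 RPKM in mutant ES cells (SD). Its difference of 1.30 ± 0.50 missed the threshold (limma, adjusted p = 0.142), and the authors list 2.06 with an FDR of 0.000153. The mutant effect on Prickle1 at day 4 minus that in ES cells was -0.36 ± 0.70 and was not called. Wnt5a had a difference of -0.54 ± 0.62 (limma, adjusted p = 0.706), and the authors list -1.26 with an FDR of 0.0265. The blocked fit also called Vangl2 (0.66; adjusted p = 0.0349; range 0.0349 to 0.771 over 13 alternatives), with 1808 genes called in place of 903. Feeder and mesenchyme sums were 32.96 to 54.22 RPKM in mutant day 4 and 98.65 to 457.9 RPKM in mutant ES libraries. They were 32.59 to 49.2 RPKM in WT day 4 libraries, and the part of these markers in the members' differences was not tested.

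Wnt5a in WT cells shows how far 1 library can set a value. It had 0.112, 0.277 and 0.246 RPKM in WT day 4 embryoid bodies, against 0.453, 0.345 and 6.32 RPKM in WT ES cells, where the third is the library with the high feeder and mesenchyme sum. The difference was -1.01 ± 0.62 (limma, adjusted p = 0.370), and -0.21 without that library (adjusted p = 0.866; range 0.274 to 0.866 over 13 alternatives). The authors' deposited table lists a log2 fold change of -2.99 for Wnt5a between these stages with an FDR of 5.19e-09.

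The 2 comparisons that chose the members are given as values only. At day 4, Prickle1 had 3.47 and 4.00 RPKM in GSK343 embryoid bodies, against 12.2 and 15.4 RPKM in DMSO embryoid bodies, a difference of -1.64. Prickle1 alone of the members was past the threshold there, with 0.128% of genes lower; that call is how it was chosen and is no test, and it was absent in each of the 4 fits that left out 1 library. The next largest decreases were -0.58 for Ror2, -0.56 for Fzd2 and -0.55 for Ror1. Vangl1 stood at 5.05 and 4.90 RPKM with GSK343 and 3.17 and 3.31 RPKM with DMSO.

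At day 8, Ror1 had 2.35, 0.190 and 0.459 RPKM in mutant embryoid bodies, against 6.18, 4.84 and 2.61 RPKM in WT embryoid bodies, a difference of -1.57. Ror1 alone of the members was past the threshold, with 0.212% of genes lower; this too is the choice and no test, and it was absent without WT library 1 or 2, without mutant library 2 or 3, and with a pseudocount of 0.1. Mutant library 1 and WT library 3 were the closest pair, and both stood apart from their groups in cell-type markers. Pluripotency markers summed to 623.9, 1857 and 1284 RPKM in mutant libraries 1 to 3 and to 77.76, 82.74 and 761.5 RPKM in WT libraries 1 to 3. Feeder and mesenchyme markers summed to 464.8, 96.2 and 77.79 RPKM in the mutant and 643.7, 655.2 and 126.7 RPKM in the WT libraries. Of these 20 markers, 19 had a negative difference and 0 were past the threshold. Endoderm markers summed to 277, 77.87 and 431.6 RPKM in the mutant and 111.4, 131.9 and 17.13 RPKM in the WT libraries. As a description, 6 of these 12 markers were higher past the threshold, as were 184 of all 14180 genes. The part of these marker lists in the Ror1 difference was not tested. Fzd2, at -1.12, and Prickle1, at -1.04, had the next largest decreases. Vangl1 stood at 10.9 to 12.1 RPKM in mutant and 4.76 to 9.81 RPKM in WT embryoid bodies.

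The genes whose levels ran most like these 2 members were ranked by Pearson correlation of log2(RPKM + 1), as a description over libraries that share stage and depth. Prickle1 across the 12 GSK343 and DMSO libraries was followed by Tspan6 (r = 0.981), Lypd6 (r = 0.978) and Cap2 (r = 0.973). Ror1 across the 18 mutant and WT libraries was followed by Ttc23 (r = 0.963), Fign (r = 0.962) and Zfp334 (r = 0.959). Among the members themselves, Fzd2 was nearest to Prickle1 (r = 0.914).

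In replated cultures no member was called in any of the 4 comparisons. GSK343 then DMSO cultures had 8.25, 3.82 and 9.59 RPKM of Wnt5a, against 16.3, 24.3 and 24.7 RPKM in DMSO then DMSO cultures. The groups did not overlap, and the difference was -1.52 ± 0.56 (SE; limma, adjusted p = 0.170). Fitting these groups alone gave an adjusted p of 0.0450, in a range of 0.0450 to 0.485 over 13 alternatives. Prickle2 was also lower without overlap, at 1.42, 1.61 and 2.62 RPKM in GSK343 then DMSO and 3.56, 6.89 and 3.36 RPKM in DMSO then DMSO cultures. Celsr1, the cadherin of the core complex, was higher without overlap, at 1.53, 2.18 and 1.75 RPKM against 1.498, 0.293 and 0.305 RPKM. These 3 members compare with 34.3% of all genes whose groups did not overlap; 0% of 14367 genes were called, 2 members and 3385 genes had an unadjusted p under 0.05, and voom called 0.

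GSK343 then GSK343 cultures differed from DMSO then GSK343 cultures without overlap for 5 members, against 32.1% of genes. Prickle1 had 12.8 and 2.84 RPKM in GSK343 then GSK343 cultures, against 18.5, 15.9 and 18.1 RPKM in DMSO then GSK343 cultures. Fzd2 had 15.8 and 11.2 RPKM against 29.4, 67.1 and 21.2 RPKM, and Prickle2 was lower too. Vangl1 had 7.23 and 20.0 RPKM in GSK343 then GSK343 cultures, against 5.29, 3.39 and 5.58 RPKM in DMSO then GSK343 cultures, and Celsr1 was also higher. Library 2 of the GSK343 then GSK343 cultures held the extreme value for Prickle1, Prickle2, Fzd2, Vangl1 and Celsr1. No gene was called (0%), 5 members and 2633 genes had an unadjusted p under 0.05, and voom called 0. Without GSK343 then GSK343 library 1, which leaves library 2 alone, Prickle1, Vangl1, Wnt5a and Celsr1 were called. The authors' deposited table lists Celsr1 with a log2 fold change of 1.99 and an FDR of 0.0278 for this pair of groups.

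The drug given only after replating was the third replated comparison. DMSO then GSK343 against DMSO then DMSO cultures had 0 members called (0% of genes), 0 members and 328 genes with an unadjusted p under 0.05, 0 members called by voom and no member without overlap, against 7.84% of genes. Ror2 had 12.5, 20.0 and 6.39 RPKM in DMSO then GSK343 and 4.59, 7.01 and 6.34 RPKM in DMSO then DMSO cultures. Median centring moved the median of all genes in this comparison, which was -0.23 as deposited, to 0.07. GSK343 then GSK343 against GSK343 then DMSO cultures also had 0 members called (0% of genes), with 0 members and 196 genes at an unadjusted p under 0.05, and voom called 0.

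Markers of feeder and mesenchyme cells were detected in all replated libraries and summed to 3171 and 1180 RPKM in GSK343 then GSK343, 1542 to 4259 RPKM in GSK343 then DMSO, 4236 to 9533 RPKM in DMSO then GSK343 and 2614 to 6652 RPKM in DMSO then DMSO cultures. Pluripotency markers summed to 802.6 and 1903 RPKM, 1013 to 1776 RPKM, 110.8 to 147.8 RPKM and 109.8 to 991.4 RPKM in the same groups. The part of either list in the members' levels was not tested.

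**Figure D4:**
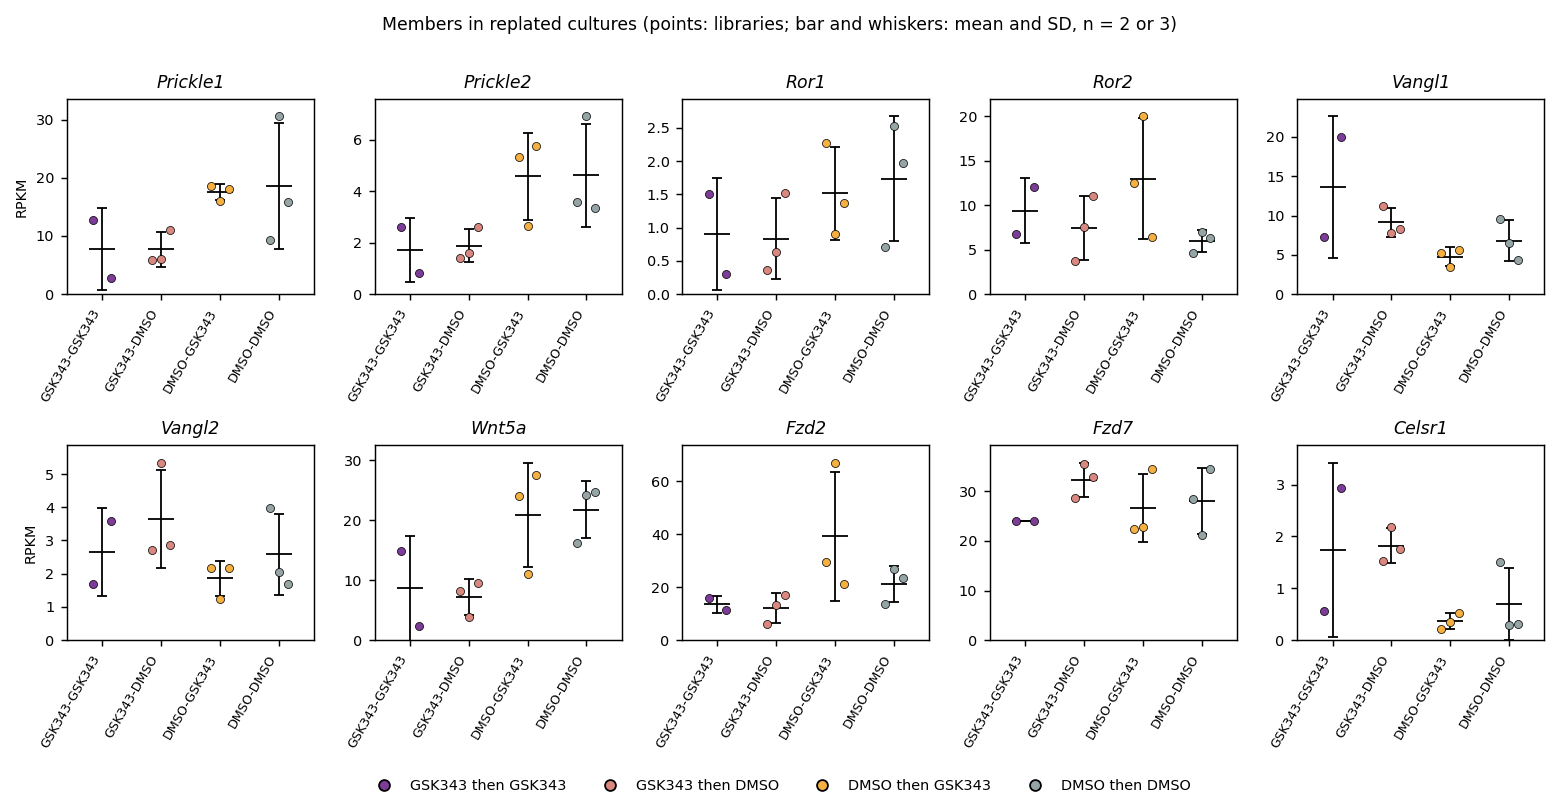
RPKM of the 10 members in the 4 replated groups; points are libraries, the bar is the mean and whiskers are the SD (n = 2 for GSK343 then GSK343, n = 3 for the others), cut at 0. Wnt5a lay at 3.82 to 9.59 RPKM in GSK343 then DMSO and 16.3 to 24.7 RPKM in DMSO then DMSO libraries, and Celsr1 at 1.53 to 2.18 and 0.293 to 1.498 RPKM.

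**Figure D5:**
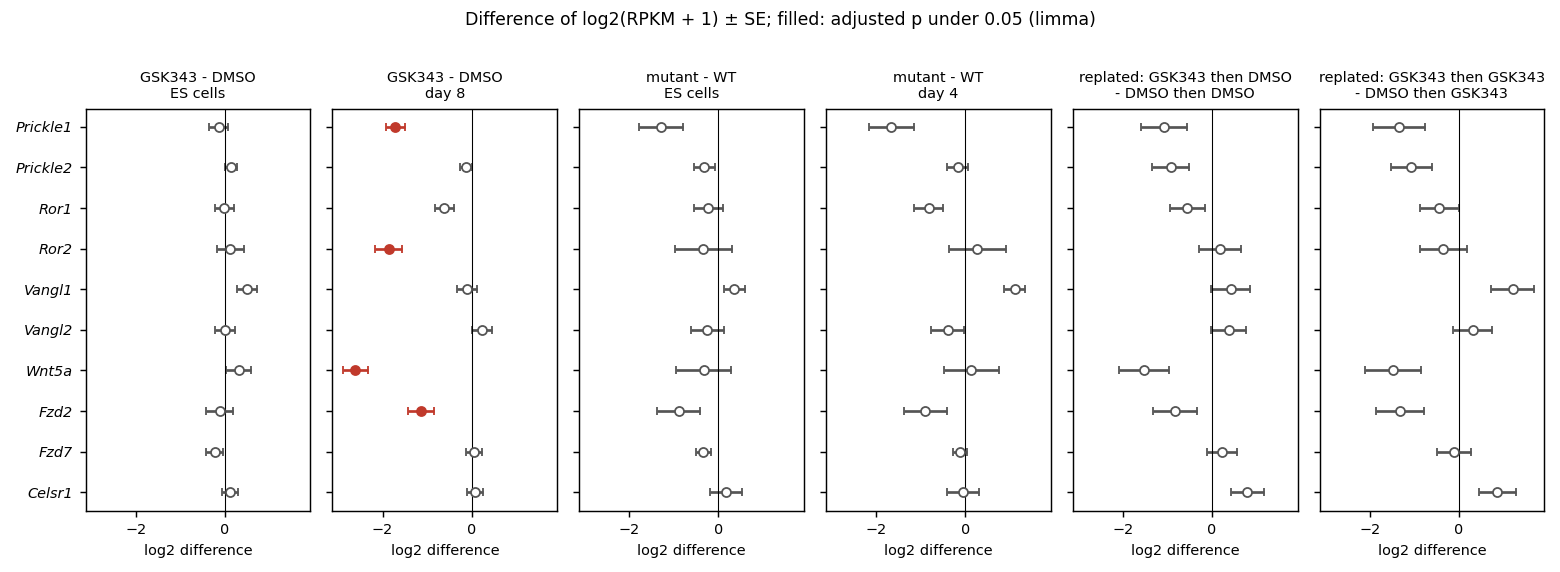
Differences of log2(RPKM + 1) between groups with their SE for the 10 members in 6 comparisons; filled red points passed an adjusted p of 0.05 by limma. The 4 filled points are Prickle1, Ror2, Wnt5a and Fzd2 in GSK343 against DMSO at day 8, at -1.71, -1.87, -2.62 and -1.14.

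The rest of the pathway was followed through 3 lists of other genes in GSK343 against DMSO day 8 embryoid bodies. Their counts stand against the 16.0% of all genes called lower and 15.6% called higher. Of 18 other planar polarity genes tested, 3 were lower and 1 higher (median -0.08), a share of lower calls near that of all genes. Dchs1 and Fat4, large cadherins that bind each other across cell borders, averaged 0.447 and 0.107 RPKM with GSK343 and 3.87 and 0.996 RPKM with DMSO (-1.76 and -0.85; limma, adjusted p = 2.94e-05 and 0.000494). Ptk7, a receptor-like pseudokinase, averaged 64.7 ± 19.1 RPKM with GSK343 and 126.0 ± 0.81 RPKM with DMSO (-0.98; adjusted p = 0.00205; SD, n = 2 each).

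Of 18 other noncanonical ligands, coreceptors and extracellular regulators, 9 were lower and 2 higher (median -0.52). The glypican Gpc3, a cell-surface proteoglycan, averaged 27.6 ± 3.56 RPKM with GSK343 and 193.2 ± 59.0 RPKM with DMSO (-2.73; limma, adjusted p = 6.88e-06). The receptor Fzd4 was lower (-2.24; adjusted p = 3.14e-05), and the receptor Fzd5 was higher, at 14.7 ± 2.16 RPKM with GSK343 and 2.92 ± 0.56 RPKM with DMSO (2.00; adjusted p = 1.38e-05). Of 15 intracellular effectors tested, 5 were lower and 0 higher (median -0.33). They included the formin Daam2 (-1.49; adjusted p = 4.29e-06), the kinesin Kif26b (-2.54; adjusted p = 6.18e-06) and the Dishevelled-binding protein Dact1 (-2.39; adjusted p = 2.72e-05).

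Under DMSO, day 8 against ES cells, 7 of the 18 planar polarity genes were higher and 2 lower. Of the 18 ligands and regulators, 8 were higher and 2 lower, and of the 15 effectors 11 were higher and 0 lower. Among all genes 28.0% were higher and 20.9% lower. Gpc3 averaged 193.2 RPKM in DMSO day 8 embryoid bodies and 11.2 RPKM in DMSO ES cells (3.96; limma, adjusted p = 5.57e-07), and Fzd5 averaged 2.92 and 33.6 RPKM (-3.14; adjusted p = 6.14e-07). Under GSK343 the same interval called 0 planar polarity genes, 3 ligands and regulators higher and 1 lower, and 0 effectors. Among all genes 7.11% were called higher and 4.52% lower under GSK343, fewer than under DMSO. At day 4 against ES cells, Fzd3, Fzd6 and Fjx1 were the planar polarity genes called in both genotypes, each higher. Among all genes 3.10% were called higher in mutant and 4.29% in WT cultures. No gene of the 3 lists was called in mutant against WT ES cells or day 4 embryoid bodies, where 0.0917% and 0.0494% of all genes were called. None was called in any replated comparison either, with 0% of all genes called.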

How the data were processed

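RNA-seq values were RPKM per gene, deposited by the authors in 3 tables normalized separately, so tests stayed within a table. The submitters' processing notes name STAR 2.5.3, featureCounts 1.6.1, edgeR, Bowtie2 2.3.4.3 and HOMER 4.10.3 without a role or order, and mm10. The authors also deposited log2 fold changes and p-values (FDR) of 4 comparisons, a PRC2 target call, gene lengths and peak positions; these were copied, not recomputed. The wild-type H3K27me3 list is cited in the labels for mutant libraries too. Multiplying RPKM by length gave whole reads (within 0.02 reads) for 100% of values up to 200 reads in 3 tables; 138 genes of the mutant and WT table had no length. RPKM times length, summed per library and divided by the sum that depth alone gives, was 1.0 in both other tables and 0.8107 to 2.227 in the mutant and WT table, so its deposited RPKM carry a further scaling per library.

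Genes with at least 0.5 RPKM in as many libraries as the smallest group (2, 3 and 2) were tested: 14016, 14180 and 14367 genes, all 10 members among them. limma 3.58.1 (R 4.3.3) was fitted to log2(RPKM + 1) over all groups of a table, with Benjamini-Hochberg adjustment over all genes and a threshold of 0.05. The fit was run on simulated data with independent normal errors per gene. That simulation held no library, pairing or cell-type effect, so it does not bear on these. Peaks were assigned to gene spans (15901 of 15924 genes matched by symbol or synonym) plus 1 kb on each side. Samples were grouped by their titles. Library numbers pair the samples in mutant against WT at day 4 (correlations 0.637, 0.29 and 0.806) and in day 4 against ES cells of mutant (0.339, 0.51 and 0.736) and WT (0.292, 0.151 and 0.26) libraries. GSK343 and DMSO libraries, 2 per group, also correlated by number, at 0.666 in ES cells and 0.424 at day 8. With 2 libraries the correlation with the other number is the same value with opposite sign, so it gives no separate check. These numbers were treated as shared only. The main fits left the library number out in every comparison, the paired ones included, and the block was run as an alternative. Alternatives were the pseudocount, the filter, the block, the groups fitted, median centring, voom on recovered reads and leaving out each library. Named genes were all members, 3 genes most correlated with Prickle1 and with Ror1 (mean of at least 1 RPKM), Ezh2, and up to 3 genes with the smallest p per pathway list. The members and lists were chosen with earlier results of these data known. No sample of the third GSK343 then GSK343 culture was analysed here.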

Additional observations from a re-analysis of the deposited data

Results flagged for a closer look

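The GSK343 effect differed between day 8 and ES cells, tested as the difference of differences by limma, for 3 members: Wnt5a by -2.93, Ror2 by -1.99 and Prickle1 by -1.57 on the log2(RPKM + 1) scale. Among the other planar polarity genes it differed by -1.96 for Dchs1, -1.14 for Fat4 and 1.16 for Celsr3. Among the ligands, coreceptors and regulators it differed by -2.42 for Gpc3, 1.93 for Fzd5 and -2.19 for Fzd4, and among the effectors by -2.86 for Kif26b, -1.56 for Daam2 and -2.11 for Dact1. Each of these rests on 2 libraries per group. The 20 feeder and mesenchyme markers had a median change of -2.39 and the 15 pluripotency markers one of 3.04 in the same test; their part in the members' change was not tested.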

How the results depend on the processing

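No member's difference reversed in a comparison where it was called: of 1795 alternative values over 140 pairs of member and comparison, 1728 stayed on their side of the threshold, 41 lost a call and 26 gained a call. Apart from fits that leave out a library, the counts that moved by more than 1.5 times were these; others moved by at most 1 member. Day 8 against ES cells under GSK343 gave 7 members (3122 genes) with the replicate block and 0 (183 genes) with the 2 groups fitted alone, against 4 (1631 genes). Day 4 against ES cells in WT gave 2 with these groups alone and 2 by voom, against 5. GSK343 then DMSO against DMSO then DMSO gave 1 with these groups alone, against 0. In mutant against WT at day 8 a pseudocount of 0.1 gave 0, against 1. Leaving out libraries in turn gave 3 to 5 members for GSK343 against DMSO at day 8, 2 to 6 for day 8 against ES cells under GSK343, 5 to 6 under DMSO, 1 to 2 for day 4 against ES cells in mutant and 1 to 6 in WT, 0 to 4 for GSK343 then GSK343 against DMSO then GSK343, and 3 to 4 for the change in the GSK343 effect. In the comparisons that chose the members, whose counts describe the choice and test nothing, it gave 0 to 0 against 1 for GSK343 against DMSO at day 4 and 0 to 1 against 1 for mutant against WT at day 8. Where a group was left with 1 library, it was assumed to vary like the others. With the replicate block, counts were 5 members and 6005 genes (4434 without it) for GSK343 against DMSO at day 8, 6 members and 8365 genes (6852) for day 8 against ES cells under DMSO, and 3 members and 4377 genes (2794) for the change in the GSK343 effect; where numbers were only shared, the calls gained are no sign of a stronger effect. Median centring moved the share of higher calls from 61.1% to 49.97% for day 8 against ES cells under GSK343 and from 44.9% to 59.3% for the change in the GSK343 effect. H3K27me3 peaks lay at 6 members with gene spans alone and at 7 with 5 kb on each side. Depth limits Ror1 in ES cells most, where GSK343 library 2 held 1 read.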
